A study of Mus musculus with 2 samples.

Results

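The SR proteins and heterogeneous nuclear ribonucleoproteins (hnRNPs) of mouse gastrocnemius, a calf muscle, were followed here as the protein-coding genes named Srsf with a number, the genes named Hnrnp, and Tra2a, Tra2b, Ptbp1 and Ptbp2. The GENCODE M21 annotation holds 35 such genes. Reads were found for 34 of them, in both libraries, out of 15324 annotated genes with a read. They comprise 20 hnRNP genes, 10 Srsf genes, 2 Tra2 genes and 2 Ptbp genes. Srsf12 had no read in either library, which allows a level of up to 3.76 CPM (reads per 1e6 reads in annotated genes) in replicate 1 and up to 1.87 CPM in replicate 2. The data are long-read RNA sequencing of total RNA from female B6CASTF1/J mice aged 36 days, the F1 cross between strains C57BL/6J and CAST/EiJ. Both libraries were started from 2 µg of RNA and belong to the same group, so only the spread between libraries could be measured. The labels number them as separate females but under a shared donor entry, and list the same pair of tissue numbers for both. Whether material was pooled is not stated, so the p-values below measure only counting error between these libraries.

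SR proteins bind exonic sequences through RNA recognition motifs and recruit the splicing machinery through a domain rich in arginine and serine. The hnRNPs coat nascent transcripts, often repress nearby splice sites, and also act in mRNA stability and transport. Many of these genes control their own level by splicing: inclusion of a so-called poison exon, or retention of an intron, places a stop codon ahead of a later exon junction, and such mRNAs are targets of nonsense-mediated decay. Skeletal muscle depends on alternative splicing for its contractile proteins, and both families take part in setting it.

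The libraries differed in depth and in make-up. Annotated genes held 797105 reads in replicate 1 and 1602272 in replicate 2. The label names gastrocnemius, and the 7 fast-fibre markers took 20.2% and 15.2% of these reads. The 6 slow-fibre markers together had 14 and 12508 reads, and all 6 were called higher in replicate 2. The 5 blood markers had 2037 and 888 reads, and 4 of them were called lower. Lower calls also covered 2 of 3 tested adipocyte markers, 1 of 3 tested nerve markers (Mbp), 1 of 4 fibroblast markers (Col3a1) and 1 of 7 fast-fibre markers (Actn3). Of 3 tested immune markers, 1 was called higher (C1qc), and 0 of 4 endothelial markers were called. In bulk tissue, fewer cells of a type and less RNA per cell cannot be told apart, and the part of these differences in the results below was not tested.

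The genes studied took 1139 reads in replicate 1, or 0.143% of the reads in annotated genes (exact Clopper-Pearson 95% interval 0.135 to 0.151%). In replicate 2 they took 2859 reads, or 0.178% (0.172 to 0.185%). The mean was 0.161% ± 0.025 (SD, n = 2).

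The sequences on which the splicing results turn are given first, from the M21 transcripts in mm10 coordinates, 5′ to 3′ on the gene's strand. The first 4 are coding exons that are either kept or skipped, all a multiple of 3 nt long. The longer exon of Hnrnpd and that of Hnrnpab lie in the glycine- and tyrosine-rich tail of the protein. The next pair belongs to Hnrnpk, an annotated coding exon that no model with reads held and the 16 nt that its models carried in the neighbouring exon. The last 2 are the starts of the poison exons of Srsf3 and Srsf6, with the first stop codon in frame in capitals.
Hnrnpa2b1 36-nt exon, chr6:51467391-51467426, minus strand: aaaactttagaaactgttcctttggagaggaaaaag
Hnrnpd 57-nt exon, chr5:99976534-99976590, minus strand: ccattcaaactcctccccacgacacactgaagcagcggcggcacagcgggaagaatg
Hnrnpd 147-nt exon, chr5:99963731-99963877, minus strand: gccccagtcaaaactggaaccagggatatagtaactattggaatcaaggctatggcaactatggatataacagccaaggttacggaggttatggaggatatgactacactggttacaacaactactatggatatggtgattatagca
Hnrnpab 141-nt exon, chr11:51601750-51601890, minus strand: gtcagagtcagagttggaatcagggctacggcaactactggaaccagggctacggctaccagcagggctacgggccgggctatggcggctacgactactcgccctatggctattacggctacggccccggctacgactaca
Hnrnpk 16-nt exon, chr13:58393853-58393868, minus strand: ggtggttctggatatg
Hnrnpk added 16 nt, chr13:58394060-58394075, minus strand: gttgagtatcaataat
Srsf3 poison exon up to its stop, chr17:29039454-29039487, plus strand: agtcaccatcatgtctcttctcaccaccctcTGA
Srsf6 poison exon up to its stop, chr2:162932815-162932966, plus strand: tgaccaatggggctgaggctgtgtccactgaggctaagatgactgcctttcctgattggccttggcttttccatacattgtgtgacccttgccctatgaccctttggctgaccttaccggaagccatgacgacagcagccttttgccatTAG

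Hnrnpa2b1, which encodes the A2 and B1 proteins and binds mRNAs for packaging and transport, had by far the most reads of the family. It had 354 reads (444 CPM) in replicate 1 and 1238 reads (773 CPM) in replicate 2, with a mean of 608 CPM ± 232 (SD, n = 2). Its mean level ranked 158 among all genes with a read. Hnrnpk, a KH-domain protein that binds C-rich RNA, came second in both libraries, with 106 reads (133 CPM) and 256 reads (160 CPM). Hnrnpu, a nuclear matrix and chromatin-associated RNA-binding protein, came next in both with 64 reads (80.3 CPM) and 99 reads (61.8 CPM). Hnrnpf, which binds G-rich runs, followed with 49 reads (61.5 CPM) and 95 reads (59.3 CPM). The first 4 genes therefore kept their order, while the order of the genes after them differed between the libraries. This order counts incomplete and unannotated models: with annotated models only, the mean was 165 CPM for Hnrnpa2b1 and 0.924 CPM for Hnrnpk.

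Hnrnpa1, Hnrnpd, Hnrnpdl and Hnrnpab are hnRNPs of the A/B and D kind, which share paired RNA recognition motifs and a glycine-rich tail. Hnrnpa1 had 43 reads (53.9 CPM) and 68 reads (42.4 CPM). Hnrnpd, also known as AUF1, a factor that promotes turnover of AU-rich mRNAs, had 36 reads (45.2 CPM) and 85 reads (53.0 CPM). Its relative Hnrnpdl had 31 reads (38.9 CPM) and 81 reads (50.6 CPM), and Hnrnpab had 31 reads (38.9 CPM) and 71 reads (44.3 CPM). Hnrnpd exceeded Hnrnpab and Hnrnpdl in both libraries, and only for Hnrnpab did the ranges over the libraries not overlap with those of Hnrnpd. Such ranges do not measure counting error, and with 36 reads against 31 in replicate 1 this order was not tested.

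Among the other hnRNPs with at least 20 reads in each library, Hnrnph2, a relative of Hnrnpf, had 32 reads (40.1 CPM) and 59 reads (36.8 CPM). Hnrnpc, which binds uridine tracts on nascent RNA, had 27 reads (33.9 CPM) and 52 reads (32.5 CPM). Hnrnpl, which binds CA repeats, had 24 reads (30.1 CPM) and 89 reads (55.5 CPM). Hnrnpr had 23 reads (28.9 CPM) and 20 reads (12.5 CPM), the only one of the 17 best-covered genes with fewer reads in the deeper library. The hnRNPs below this coverage had between 2 reads (Hnrnpa0) and 19 reads (Hnrnpm) in replicate 1 and between 10 reads (Hnrnpa0) and 52 reads (Hnrnpm) in replicate 2. They were Hnrnpm, Hnrnpul1, Hnrnph1, Hnrnpa3, Hnrnpll, Hnrnph3, Hnrnpul2 and Hnrnpa0.

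Of the SR proteins, Srsf2 (also called SC35, a marker of nuclear speckles) had 45 reads (56.5 CPM) and 71 reads (44.3 CPM), and Srsf5 had 33 reads (41.4 CPM) and 89 reads (55.5 CPM). Srsf3, the smallest family member and a factor in mRNA export, had 26 reads (32.6 CPM) and 42 reads (26.2 CPM). Srsf4 had 25 reads (31.4 CPM) and 32 reads (20.0 CPM), and Srsf6 had 24 reads (30.1 CPM) and 40 reads (24.96 CPM). Srsf2 and Srsf5 thus exceeded Srsf3, Srsf4 and Srsf6 in both libraries, an order that was not tested. The other 5, Srsf1, Srsf7, Srsf9, Srsf10 and Srsf11, had 10 to 16 reads in replicate 1 and 16 to 37 in replicate 2, and the prototype of the family, Srsf1, had 10 reads (12.5 CPM) and 26 reads (16.2 CPM). Together, the SR proteins took 211 reads in replicate 1 and 392 in replicate 2, against 918 and 2444 for the hnRNPs.

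The polypyrimidine tract-binding and transformer-2 genes were near the limit of detection. Ptbp1, a widely expressed repressor of neuronal and muscle exons, had 2 reads (2.51 CPM) and 6 reads (3.74 CPM), and its neural relative Ptbp2 had 3 reads (3.76 CPM) and 10 reads (6.24 CPM). At 3 and 10 reads against 2 and 6, a difference between the pair was not detectable at this depth. Tra2b had 4 reads and 5 reads, and Tra2a had 1 read and 2 reads. Tra2a was thus below 3 reads in both libraries.

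**Figure D1:**
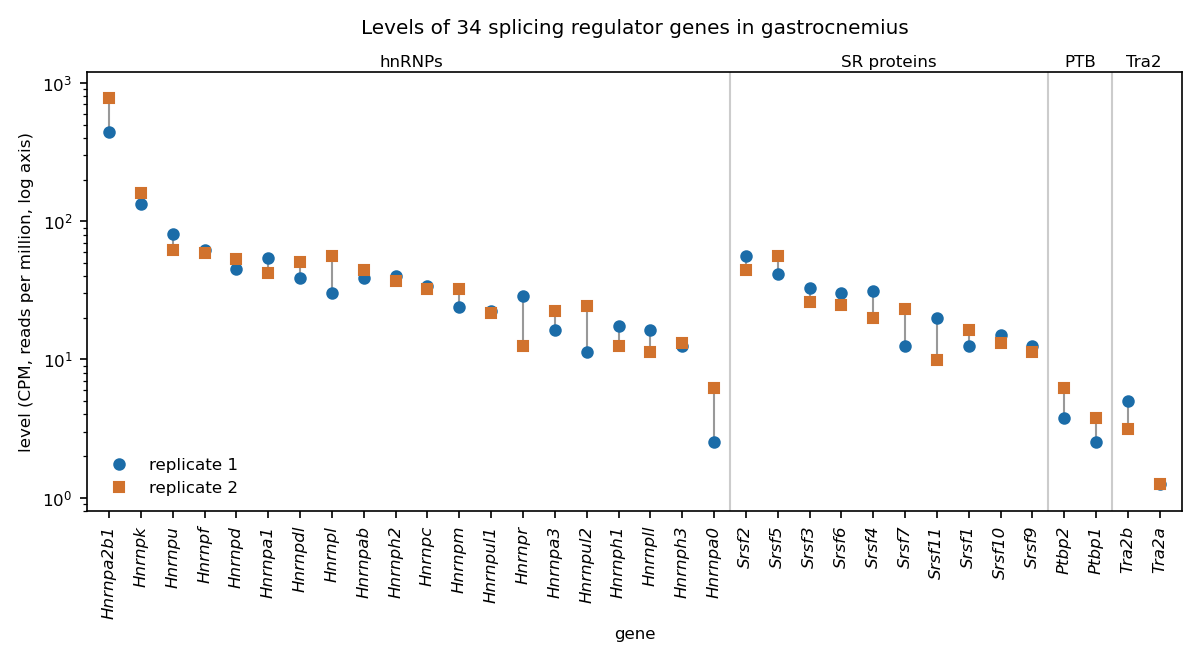
Level in CPM (log axis) of each of the 34 genes, grouped by family and ordered by mean level, with circles for replicate 1 and squares for replicate 2 joined by a line. Hnrnpa2b1 lies at 444 and 773 CPM, above every other gene in both libraries, and the Tra2 and Ptbp genes lie lowest with Hnrnpa0.

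The question open to the design is whether these genes differed between the libraries. A difference of tissue cannot be told apart from a difference of library preparation here. Of the 34 genes, 31 had at least 10 reads summed over both libraries and were tested. One was called, Hnrnpr, lower in replicate 2 (Fisher's exact test, two-sided, Benjamini-Hochberg adjustment over 8096 genes, calls needing both an adjusted p below 0.05 and CPM levels 2-fold or more apart). Over all genes tested, 11.3% were called, with 5.78% higher and 5.47% lower in replicate 2. The higher share of these calls was 51.4%, and 38.0% with the reads of Atp2a1, the calcium pump of fast fibres, left out of the totals. At 28.9 and 12.5 CPM, Hnrnpr was 2.31-fold lower in replicate 2 (95% interval 1.21 to 4.44), with an adjusted p of 0.0437 in Fisher's exact test with Benjamini-Hochberg adjustment. The call rests on 23 and 20 reads. It was lost with no filter on low counts (adjusted p = 0.0812, Fisher's exact test with Benjamini-Hochberg adjustment). It was also lost with replicate 2 thinned, in a single random draw, to the depth of replicate 1 (adjusted p = 0.2001, Fisher's exact test).

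The other 30 tested genes were not called. Over all 31, the ratio of replicate 2 to replicate 1 was above 1 for 15 genes and below 1 for 16, with a median of 0.967, against a median of 1.04 over all genes tested. For the SR proteins it was above 1 for 3 and below 1 for 7 of 10 (median 0.850), and for the hnRNPs above 1 for 11 and below 1 for 9 of 20 (median 1.09). Hnrnpul2, at 11.3 and 24.3 CPM, was 2.16 times as high in replicate 2 but did not pass (95% interval 1.03 to 5.06, adjusted p = 0.122, Fisher's exact test with Benjamini-Hochberg adjustment). Incomplete models held 7 of its 9 reads in replicate 1 and 39 of 39 in replicate 2. The part of these models in its ratio was not tested. Intervals were wide for genes with few reads: that of Srsf11, at 20.1 and 9.99 CPM, ran from 0.233 to 1.06. That of Srsf4 ran from 0.366 to 1.12, and that of Hnrnpf, with more reads, from 0.676 to 1.39.

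**Figure D2:**
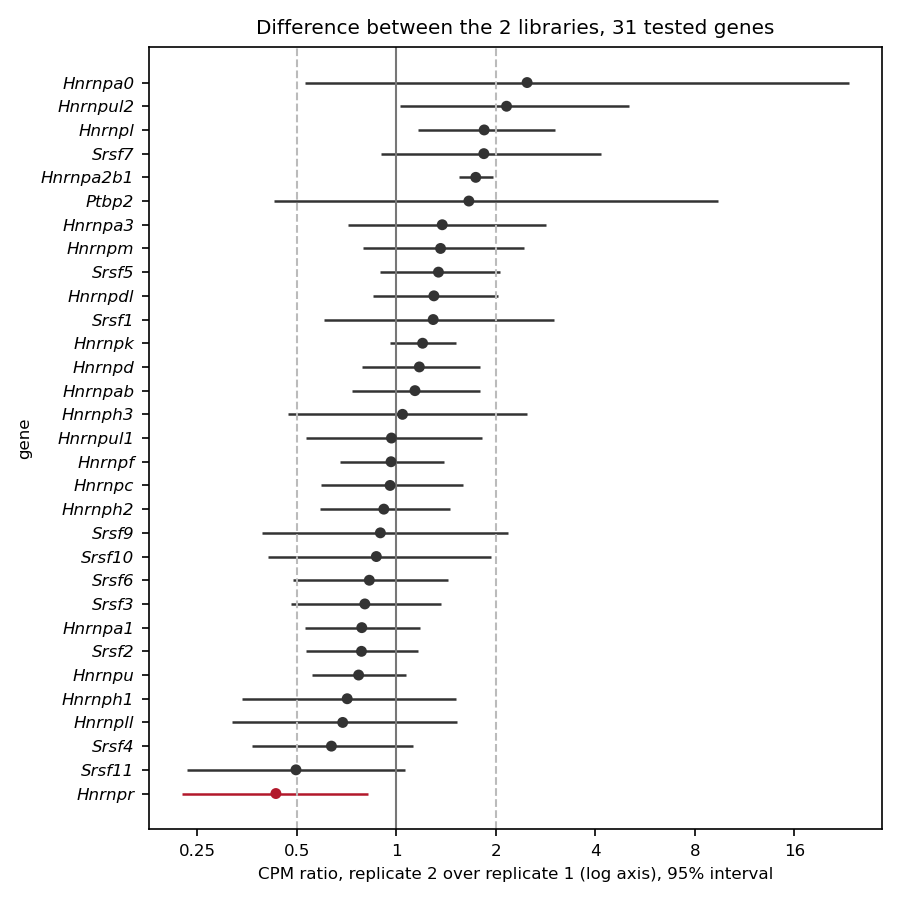
Ratio of the CPM level in replicate 2 to that in replicate 1 (log axis) for the 31 tested genes, with 95% intervals from counting error, a solid line at 1 and dashed lines at 0.5 and 2. Only Hnrnpr, in red at the bottom, was called; the interval of Hnrnpa2b1 lies between 1.54 and 1.96.

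A pair of genes passed the adjusted p without reaching a 2-fold difference. Hnrnpa2b1 was 1.74 times as high in replicate 2 (95% interval 1.54 to 1.96; adjusted p = 3.0e-20 in Fisher's exact test with Benjamini-Hochberg adjustment), and Hnrnpl 1.84 times (1.16 to 3.03; adjusted p = 0.0362). In Hnrnpa2b1 the difference lay in short models. An incomplete model of 2 exons, those before the proximal end, held 109 reads in replicate 1 and 598 in replicate 2. Models of 2 to 5 exons together had 170 reads (213 CPM) and 838 reads (523 CPM), a ratio of 2.45 (95% interval 2.08 to 2.91). Models of more than 5 exons had 116 reads (146 CPM) and 199 reads (124 CPM), a ratio of 0.853 (0.675 to 1.08). Single-exon models had 68 reads (85.3 CPM) and 201 reads (125 CPM), a ratio of 1.47 (1.11 to 1.97). Thus the longer models did not differ beyond counting error (Fisher's exact test, two-sided, p = 0.188), while the models of 2 to 5 exons did (p = 2.3e-31); these splits were chosen after the values were seen. With annotated models only, the ratio of the gene was 0.861. The ratio of Hnrnpl was 1.32 with annotated models only, which no longer passed (adjusted p = 0.697, Fisher's exact test with Benjamini-Hochberg adjustment), and 12 of its 24 reads in replicate 1 and 60 of 89 in replicate 2 were in incomplete models. Over all protein-coding genes incomplete models took 10.9% and 16.1% of reads, and the part of this difference in the ratios was not tested.

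**Figure D3:**
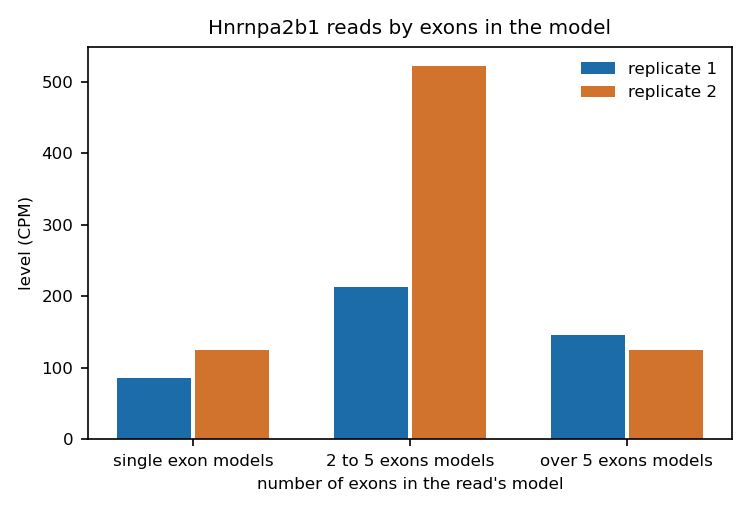
Level of Hnrnpa2b1 in CPM, split by the number of exons in the model each read was assigned to, with 1 bar per library. Models of 2 to 5 exons stand at 213 CPM in replicate 1 and 523 CPM in replicate 2, while models of more than 5 exons stand at 146 and 124 CPM.

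Reads were then divided by the type of transcript. Over the 34 genes, annotated coding transcripts held 525 of 1139 reads in replicate 1 (46.1%) and 884 of 2859 in replicate 2 (30.9%), against 65.3% and 65.7% over all protein-coding genes. Nonsense-mediated decay transcripts held 15 reads (1.32%) and 34 reads (1.19%), against 0.0912% and 0.104% over all protein-coding genes. Retained-intron transcripts held 6 reads (0.527%) and 20 reads (0.700%), against 0.698% and 1.35%. Decay and retained-intron transcripts together made up 1.84% of the reads in replicate 1 (95% interval 1.15 to 2.80%) and 1.89% in replicate 2 (1.42 to 2.46%), a mean of 1.87% ± 0.032 (SD, n = 2), against 0.789% and 1.46% over all protein-coding genes. The mean was 4.802% of coding, decay and retained-intron reads alone, 3.57% without incomplete and Genomic models, and 1.11% with decay reads that keep the normal stop counted as coding. The annotation gives 28 of the 35 genes at least 1 transcript of these types. The remaining reads were in incomplete models (25.4% and 43.6%), in unannotated spliced models (16.5% and 11.2%), and in single-exon Genomic models (10.2% and 12.3%). Hnrnpa2b1 alone gave 179 of the 289 reads in incomplete models in replicate 1 and 857 of 1247 in replicate 2. Without Hnrnpa2b1, annotated coding transcripts held 55.0% and 44.7% of the reads. That set still includes Hnrnpk, with 0 coding reads out of 106 and 256.

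By family, the difference was not tested. In the SR proteins, 72.5% and 61.0% of the reads were in coding transcripts, 5.21% and 5.10% in decay or retained-intron transcripts, and 1.90% and 10.7% in incomplete models. In the hnRNPs, coding transcripts held 39.98% and 25.9%, decay or retained-intron transcripts 1.09% and 1.35%, and incomplete models 30.8% and 49.1%. Much of the hnRNP values rests on Hnrnpa2b1, which gave 354 of 918 hnRNP reads in replicate 1 and 1238 of 2444 in replicate 2. Of its own reads, 26.3% and 12.9% were coding, 0.282% and 0.404% decay or retained-intron, and 50.6% and 69.2% in incomplete models. Of the 17 best-covered genes, with 20 or more reads per library, 10 had a decay or retained-intron read, or 58.8%, against 25.6% of 3087 protein-coding genes of that coverage and 37.1% of the 2130 with such a transcript annotated. The 17 include Hnrnpf, Hnrnpab and Hnrnph2, which have no such transcript annotated, so the 58.8% and the 37.1% are not over like sets. The median share of decay and retained-intron reads per gene was 0% and 0.404%, against 0% in both libraries over the 3087 genes. These are descriptions of chosen genes and carry no test.

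The most used model was the same in both libraries for 14 of these 17 genes, and for 12 of them it was an annotated transcript. Ties count as agreement here: Hnrnpf-201 shared the lead with an incomplete model in replicate 1, and Hnrnpr-204 with Hnrnpr-202 in replicate 2. It was clearest in Srsf4, where Srsf4-202 held 84.0% and 90.6% of reads, in Hnrnpu (Hnrnpu-201, 82.8% and 71.7%), in Srsf6 (Srsf6-203, 83.3% and 65.0%), in Srsf3 (Srsf3-202, 80.8% and 76.2%) and in Srsf2 (Srsf2-201, 75.6% and 62.0%). Several hnRNPs had no transcript with a majority of reads: Hnrnpa1-202 held 34.9% and 35.3% of its gene, Hnrnpab-201 38.7% and 45.1%, Hnrnpdl-202 35.5% and 37.0%, and Hnrnpf-201 30.6% and 24.2%. Hnrnpc and Hnrnpa2b1 were led by incomplete models in both libraries, with Hnrnpa2b1-204 at 21.8% and 9.53%. In Hnrnpd, Hnrnpk and Hnrnpl the leading model differed between the libraries.

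**Figure D4:**
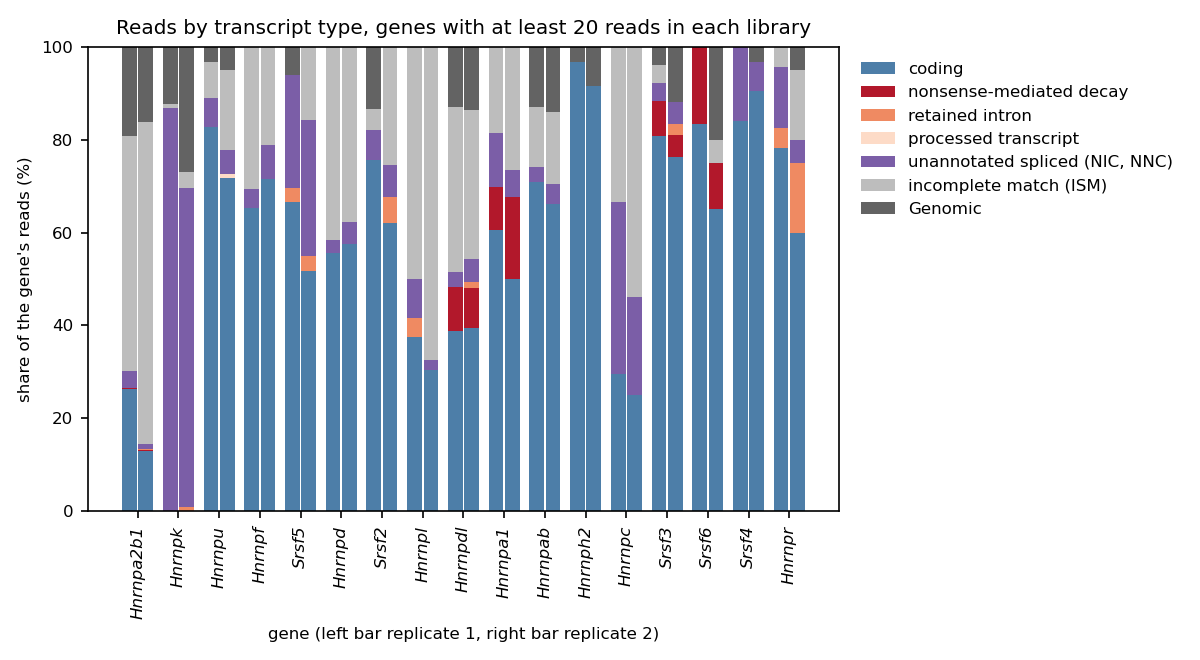
Share of each gene's reads (%) by transcript type for the 17 best-covered genes, with the left bar for replicate 1 and the right bar for replicate 2. Coding transcripts lead in Srsf4, Hnrnpu and Hnrnph2, decay transcripts are visible in Hnrnpa1, Hnrnpdl, Srsf6 and Srsf3, Hnrnpk has no coding reads, and Hnrnpa2b1 is mostly incomplete models.

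The decay transcripts fell into 2 kinds, according to where translation from the annotated start would end. In the first kind the frame ended at the normal stop and a late junction lay beyond the normal stop codon. Hnrnpa1-203 had 4 reads in replicate 1 and 12 in replicate 2; its frame of 320 codons ends at the same stop as that of Hnrnpa1-202, the most used coding transcript, and its last junction lies 90 nt further on. Hnrnpdl-201 had 3 and 7 reads, keeps the 420 codons of Hnrnpdl-202, and has its last junction 126 nt after the stop. The decay transcripts Hnrnpa2b1-207 and Hnrnpa2b1-209 had 4 and 1 reads over both libraries and likewise end at the stop of Hnrnpa2b1-204. This kind held 31 of the 49 decay reads (63.3%).

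In the second kind the frame was cut short. Srsf6-201 had 4 reads in each library and holds a 268-nt exon that ends the frame after 135 codons, against 339 in Srsf6-203, with 534 nt from the stop to the last junction. The stop of Srsf6-201 is also the annotated stop of a coding transcript of Srsf6. Srsf3-201 had 2 reads in each library and holds a 456-nt exon that ends the frame after 124 codons, against 164 in Srsf3-202. The remaining decay reads were 4 of Srsf9-205, for which no frame could be read, and 1 each of Hnrnph3-204 and Ptbp1-201. The Ptbp1 read ends after 353 codons, against 529 in Ptbp1-206. No retained-intron transcript reached 5 reads: Srsf2-203, Srsf5-212 and Hnrnpr-211 had 4 each over both libraries and Srsf7-207 had 3. Transcripts with fewer than 5 reads were chosen after their values were seen.

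Against coding reads alone, the share of decay and retained-intron reads could be compared between the libraries for 6 of these genes, and none was called, against 0.995% of 603 genes tested over the whole table (0.829% higher and 0.166% lower in replicate 2). With all reads of a gene as the denominator, 1 gene was called higher and 3 lower, again no member. The share was 4 of 30 reads (13.3%) and 12 of 46 (26.1%) in Hnrnpa1, 4 of 24 (16.7%) and 4 of 30 (13.3%) in Srsf6, and 2 of 23 (8.70%) and 3 of 35 (8.57%) in Srsf3. In Srsf2 it was 0 of 34 and 4 of 48 (8.33%), in Srsf5 1 of 23 (4.35%) and 3 of 49 (6.12%), and in Hnrnpa2b1 1 of 94 (1.06%) and 5 of 165 (3.03%). The smallest unadjusted p among the 6 was 0.138, for Srsf2, in Fisher's exact test, and 0 had a p under 0.05. Over both libraries 16 of all 111 Hnrnpa1 reads were unproductive by label (14.4%, 95% interval 8.47 to 22.4%), as were 8 of 64 Srsf6 reads (12.5%, 5.55 to 23.2%) and 11 of 112 Hnrnpdl reads (9.82%, 5.01 to 16.9%). Hnrnpu, Hnrnpd, Hnrnpc and Srsf4 had none, and Hnrnpf, Hnrnpab and Hnrnph2 have no transcript of these types annotated; for Hnrnpu, 0 of 163 reads has an exact 95% interval of 0 to 2.24%.

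Unannotated spliced models added to the intron-retaining reads of some SR proteins. In Srsf5, models with 1 exon of 1373 nt that runs through an annotated intron had 7 reads in replicate 1 and 12 in replicate 2; their frame ends after 124 codons, as in the annotated Srsf5-212, against 269 in Srsf5-201. In Srsf7, models with a 1126-nt exon of this kind had 0 and 6 reads and end after 157 codons, as in Srsf7-207, against 238 in Srsf7-201. Both introns are thus kept in reads that carry no retained-intron label. In Srsf1, 3 reads of replicate 2 held a 1053-nt exon and ended after 201 codons, against 248 in Srsf1-205. Unlike those of the Srsf5 and Srsf7 models, this stop is also the annotated stop of a coding transcript of the gene. These models were chosen after their values were seen.

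Each spliced model was therefore also read from its first annotated start codon to the first stop, whatever its label, in a measure added after the data were seen. The bases are those of the reference, not of the reads. Of the reads that could be read this way, 168 of 722 in replicate 1 (23.3%) and 295 of 1218 in replicate 2 (24.2%) had a junction more than 50 nt after the first stop, against 3.42% and 3.45% over all protein-coding genes. Without Hnrnpk and Hnrnpm, described next, the shares were 67 of 621 (10.8%, 95% interval 8.46 to 13.5%) and 111 of 1034 (10.7%, 8.91 to 12.8%). Over both libraries the share was 22 of 83 reads (26.5%) in Hnrnpa1, 27 of 106 (25.5%) in Srsf5, 12 of 46 (26.1%) in Srsf7, 10 of 51 (19.6%) in Hnrnpdl, 8 of 54 (14.8%) in Srsf6, 7 of 60 (11.7%) in Srsf3 and 32 of 287 (11.1%) in Hnrnpa2b1. It was 0 of 92 in Hnrnpf, 0 of 85 in Hnrnph2 and 0 of 79 in Hnrnpab. In Hnrnpul1 the 7 reads of this class were of Hnrnpul1-201, and in Hnrnpa2b1 14 of the 32 were of Hnrnpa2b1-202. The annotation calls both transcripts coding, so the class is not by itself a label of decay.

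Hnrnpk and Hnrnpm had no read in an annotated coding transcript in either library, although they had 362 and 71 reads over both. The 8 coding transcripts of Hnrnpk that span the place hold the 16-nt exon shown above, and none of the models of the 278 spanning reads did. Instead, 266 of them, 91 in replicate 1 and 175 in replicate 2, lengthened the exon before it by exactly 16 nt, at a place that is no annotated exon end. The annotated exon and the added 16 nt are equal at 8 of 16 positions. Among the other spanning reads, 7 had no added base, 3 had 5 nt and 1 had 25 nt. In Hnrnpm, an 8-nt exon present in 5 of 5 coding transcripts was missing from all 21 spanning reads, and the exon before it was 6 nt longer. Read from the reference, these models stop early, after 368 codons in the main Hnrnpk models, which puts all 266 Hnrnpk and 19 Hnrnpm reads that could be read in the class with a late junction. Whether the reads themselves hold the bases of the short exons was not tested, since the files give models and not read bases, so the coding capacity of these reads is not known here.

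Other short exons were found at varying levels. A 15-nt coding exon of Hnrnpm was also in 0 of 22 spanning reads. A 36-nt coding exon of Srsf7 was in 41 of 46 reads, and a 39-nt coding exon of Srsf3 in 59 of 61. The Hnrnpm exons of 36 and 39 nt were in 14 of 21 reads each, and a 26-nt exon of Hnrnpc in 24 of 42. This comparison by size was not tested.

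Reads were informative for an internal exon if they held it or joined its neighbouring exons directly. Alternative inclusion was compared for internal exons with at least 20 informative reads in each library. Of 19 such exons in these genes, 0 were called by Fisher's exact test, against 0.372% of 3222 exons over all genes (0.279% higher and 0.0931% lower in replicate 2). None had an unadjusted p under 0.05 either. The smallest, 0.0598 in Fisher's exact test, belonged to a 45-nt exon in the 5′ UTR of Hnrnph2, at 7 of 30 reads (23.3%) and 25 of 54 (46.3%). Of these 19 exons, 12 were included in 5 to 95% of reads in at least 1 library (63.2%), against 23.2% over all genes.

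The clearest example of partial inclusion was Hnrnpd, whose exons of 57 and 147 nt give the known AUF1 isoforms p37, p40, p42 and p45. The 57-nt exon, in the N-terminal part of the protein, was included in 17 of 22 reads (77.3%) and 43 of 54 reads (79.6%), a mean of 78.5% ± 1.7 (SD, n = 2). The 147-nt exon was included in 12 of 27 reads (44.4%) and 32 of 65 (49.2%), a mean of 46.8% ± 3.4. Both exons could be followed along single reads. The form with both (p45) had 11 of 22 and 18 of 54 reads, that with the 57-nt exon alone (p40) 6 and 25, that with the 147-nt exon alone (p42) 0 and 6, and that with neither (p37) 5 and 5. All 4 forms were therefore present in replicate 2, and 3 of them in replicate 1, where 0 of 22 p42 reads has an exact 95% interval of 0 to 15.4%.

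Hnrnpa2b1 was mostly of the A2 form. The 36-nt exon that defines B1 was included in 13 of 107 reads (12.1%) and 21 of 182 reads (11.5%), a mean of 11.8% ± 0.43 (SD, n = 2). The 120-nt exon further on was included in 118 of 126 reads (93.7%) and 201 of 226 (88.9%). Along single reads, A2 with the 120-nt exon made up 84.1% and 75.0%, A2 without it 3.74% and 13.9%, and B1 with it 11.2% and 11.1%. B1 without the 120-nt exon was seen in 1 of 107 and 0 of 180 reads.

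The tail exon of Hnrnpab, a relative of Hnrnpd, was also included at an intermediate level. This 141-nt exon was in 11 of 26 (42.3%) and 18 of 58 (31.03%). The difference between the libraries was within counting error (unadjusted p = 0.332 in Fisher's exact test).

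Internal exons whose exact ends are annotated only in decay transcripts are described next. Part of the Srsf6 exon also lies in a coding transcript, which has its annotated stop there. The Srsf6 poison exon was in 4 of 24 reads (16.7%, 95% interval 4.74 to 37.4%) and 4 of 30 (13.3%, 3.76 to 30.7%), and the Srsf3 poison exon in 2 of 24 (8.33%) and 2 of 35 (5.71%). The 105-nt exon of Hnrnpdl, which lies after the stop codon, was in 4 of 22 (18.2%) and 9 of 61 (14.8%). At lower coverage, the 358-nt exon of Srsf9 was in 4 of 9 and 4 of 16 reads and its 90-nt exon in 1 of 10 and 6 of 16, and a 70-nt exon of Hnrnpl was in 2 of 13 and 3 of 37. Each was thus seen in both libraries.

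**Figure D5:**
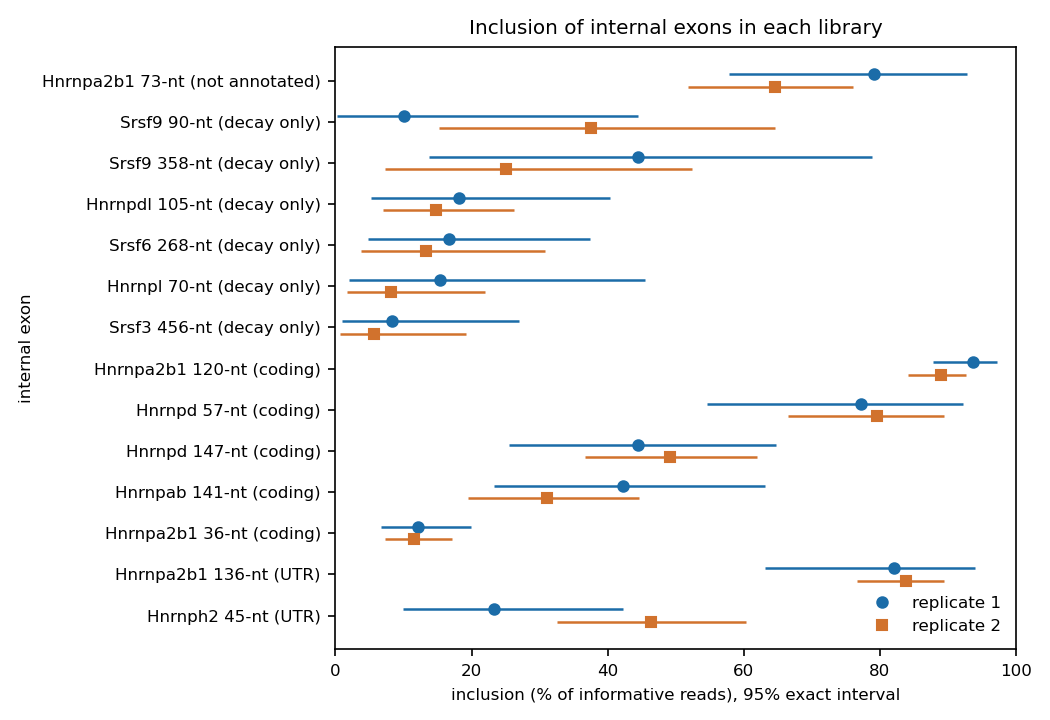
Inclusion (%) of 14 internal exons named by the rule for exons, with exact 95% intervals, circles for replicate 1 and squares for replicate 2; the label gives the exon length and its place in the annotation. The intervals of the libraries overlap for every exon, from 5.71% for the Srsf3 poison exon in replicate 2 to 93.7% for the 120-nt exon of Hnrnpa2b1 in replicate 1. The 136-nt and 73-nt exons of Hnrnpa2b1 are forms of the same exon, each set against skipping reads only.

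Last exons were compared in Hnrnpa1 and Hnrnpa2b1, a pair chosen after the values were seen; the decay transcript Hnrnpa1-203 ends in the distal last exon. Spliced Hnrnpa1 reads ended in the distal last exon in 10 of 41 reads (24.4%) in replicate 1 and 28 of 65 (43.1%) in replicate 2, a difference within counting error (Fisher's exact test, two-sided, p = 0.0625). Hnrnpa2b1 used the proximal last exon in 231 of 286 spliced reads (80.8%) and in 812 of 1037 (78.3%). This choice did not differ beyond counting error (p = 0.414 in Fisher's exact test). A 136-nt UTR exon of Hnrnpa2b1 was in 23 of 28 reads (82.1%) and 119 of 142 (83.8%) that either held this form or skipped it. Counted in the same way, an unannotated 73-nt form that shares an end with it was in 19 of 24 (79.2%) and 42 of 65 (64.6%). Reads with the other form were left out of each count, so these shares are not parts of the same whole.

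Genes that act with these proteins were read from 4 lists, against 11.3% called (5.78% higher) and a median ratio of 1.04 over all genes tested. None of 9 SR protein kinases, Clk and Dyrk kinases and the importer Tnpo3 was called, with a median ratio of 0.970; among them Srpk3, a kinase of striated muscle, had 71 reads (89.1 CPM) and 116 reads (72.4 CPM). None of 13 SR-related proteins was called (median 0.853). Of 18 core spliceosome genes, 1 was called, higher in replicate 2, and the median was 0.881. It was Snrpd3, a ring protein of the spliceosomal snRNPs, with 25 reads (31.4 CPM) and 101 reads (63.0 CPM) and a ratio of 2.01 (adjusted p = 0.00895, Fisher's exact test with Benjamini-Hochberg adjustment). This ratio only just passes the 2-fold cut. Replicate 2 had 2.01 times the reads of replicate 1, but 2.08 times by TMM and 2.07 times by size factors. Either of these scalings puts Snrpd3 below 2-fold, and the call is lost. None of 14 tested decay and exon junction factors was called (median 0.862); Smg1 was not tested. Upf1, the central helicase of nonsense-mediated decay, had 15 reads in each library (18.8 and 9.36 CPM).

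Reads could in part be shared with other genes. Pseudogenes of the processed kind that share at least 20% of their 25-nt words with these genes numbered 9 and had 9 and 26 reads in all, of which the 5 copies of Hnrnpa3 had 7 and 22, against 13 and 36 reads in Hnrnpa3 itself. The level of Hnrnpa3 is therefore uncertain, since reads could be split between the gene and its copies. Srsf2 overlaps Mfsd11 and Mettl23 on the other strand, Hnrnpu overlaps Cox20, and Hnrnpm overlaps March2 on its own strand. How the authors' counting used strand is not given in the sources used here, so reads of such pairs could not be told apart with certainty.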

How the data were processed

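Long-read RNA sequencing of gastrocnemius was deposited, for each of 2 libraries, as read counts of transcript models with an annotation of those models. The deposited counts are whole numbers, not normalized. Per the README deposited with the files, they derive from filtered mm10 alignments and GENCODE M21; the deposited annotation carries TALON numbers. Aligner and filters: not given in the sources used here.

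Counts were summed per gene over its models. CPM was computed on reads in annotated mouse genes; spike-ins, antisense loci and intergenic loci were left out. A long read is 1 molecule, so CPM was not scaled by length. The value of 1 read was 1.25 and 0.624 CPM in replicates 1 and 2. Intervals are at 95%, Clopper-Pearson for shares and from the binomial interval for ratios, and a count of 0 allows 3 counts; both cover counting error only.

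Genes, shares and exons were compared between libraries with Fisher's exact test and Benjamini-Hochberg adjustment over the whole table. Genes needed 10 reads summed and a 2-fold difference; shares and exons needed 20 reads in each library and a difference of 10 percentage points. The tests were tested on simulated data. The members and lists were chosen with earlier results of these data known; reading frames, last exons and Hnrnpa2b1 by exon number were added after the data were seen. All members are accounted for; full values are given from 20 reads in each library. Transcripts were named when most used or, for decay and retained-intron types, from 5 reads summed. Exons were named from 20 informative reads in each library and an inclusion of 5 to 95% in either, or from 3 reads when found with these exact ends only in decay transcripts. One exon that meets this rule is not reported here. Reading frames used the M21 transcript sequences. TMM factors (edgeR 4.0.16) and size factors (DESeq2 1.42.0) served only as other scalings of the ratio. Tests used scipy 1.17.1 under Python 3.11.15, with tables in pandas 2.3.3; scaling used R 4.3.3.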

Additional observations from a re-analysis of the deposited data

Results flagged for a closer look

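Antisense loci, which the comparisons above leave out, held reads inside the spans of these genes. They had 102 reads in replicate 1 and 700 in replicate 2, above the 3 reads that a count of 0 allows, and there is no control sample to set them against. This is 8.96% and 24.5% of the sense reads of the same genes; over all genes, antisense loci had 2.59% and 5.86% of the reads in annotated genes. In 11 of the 34 genes antisense reads exceeded 3 in each library, with the most in Hnrnpl (21 and 128), Hnrnpu (15 and 114), Srsf10 (9 and 89) and Tra2b (12 and 73), which were chosen after their values were seen. Antisense reads exceeded sense reads in 1 gene (Tra2b, 4 sense reads) in replicate 1 and in 7 genes in replicate 2. What these reads are was not tested.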

How the results depend on the processing

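The count of called genes was 911, or 488 with at least 20 reads in each library, where 3204 genes were tested; the other 7 planned settings kept it within 1.5 times. Without the reads of Atp2a1 in the totals the median ratio moved by -0.12 on the log2 scale and higher calls made up 38.0% of calls in place of 51.4%; with known models only they made up 30.5%, and the median moved by -0.14. Called members numbered 1 of 31 tested (Hnrnpr) as reported, where 11.3% of all genes tested were called. With known models only they numbered 2 of 26 (Hnrnpr and Srsf11), against 14.7% of all genes. With no filter on low counts they numbered 0 of 34, against 5.19%. With replicate 2 thinned, in a single random draw, the 1 called of 29 was Srsf2, against 10.7% of all genes. Unthinned, Srsf2 was not called (adjusted p = 0.429, Fisher's exact test with Benjamini-Hochberg adjustment). The ratio of Hnrnpa2b1 turned to 0.861 with known models only and to 0.930 without incomplete and Genomic models. Genes with a called unproductive share numbered 6, but 0 of 142 with decay transcripts alone (2 had an unadjusted p under 0.05 in Fisher's exact test, neither a member) and 11 with no minimum difference. Called exons numbered 12, but 4 with known models only. No member's share and no member's exon was called under the planned settings. The unproductive share over the members was 1.87%, and 4.802% of coding, decay and retained-intron reads, 3.57% without incomplete and Genomic models, 1.53% without Hnrnpa1 and 3.68% as a mean over genes. Settings added after seeing the data gave 2.79% without Hnrnpa2b1 and 1.11% when decay reads with the normal stop counted as coding. It was 1.84 to 1.89% with either replicate left out. Reads with a late junction made up 23.7%, and 10.8% without Hnrnpk and Hnrnpm. With known models only, 17 of 34 levels moved by more than their SD. No paired analysis was possible because both libraries belong to the same group. Depth limits the rest: 17 of 34 genes had fewer than 20 reads in at least 1 library.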
